A study of Oryza sativa with 40 samples.

Results

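The genes described here are those whose product name in the deposited rice table contains NADH-ubiquinone, NADH dehydrogenase, ubiquinol-cytochrome, cytochrome c oxidase, succinate dehydrogenase or ATP synthase. The names matched 101 loci, LOC_Os01g61410 was left out, and 100 of the 19308 genes in the table remained. They were followed by total RNA sequencing in leaves of Oryza sativa IR64, an indica rice cultivar, grown hydroponically at 30/25 °C by day and night. After 2 weeks some tanks stayed at 30/25 °C (warm), some went to 40/35 °C (hot) and some to 25/20 °C (cold), and the middle of leaves that had fully expanded before the move was taken. Warm leaves were taken at 0, 2, 6 and 24 h, and leaves of both shifts at the last 3 of these hours, which makes 10 groups of 4 libraries, 40 in all. All groups share the cultivar, the warm growth period and a leaf that had stopped expanding, and none carries a transgene or a mutation by its labels. The comparisons ask how transcripts of energy metabolism in an existing leaf stood after the temperature changed, and each shifted group was set against warm leaves of the same hour.

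The respiratory chain of plant mitochondria passes electrons from NADH and succinate through complexes I and II to ubiquinone, then through complex III, cytochrome c and complex IV to oxygen. Complexes I, III and IV pump protons, and ATP synthase uses the returning protons to make ATP. Plants add NADH dehydrogenases on the outer face of the inner membrane that oxidise cytosolic NADH without pumping protons. In illuminated leaves the chain runs beside photosynthesis, which has a related ATP synthase and an NADH dehydrogenase-like complex of its own in the chloroplast. The vacuolar enzyme, often annotated as an ATP synthase, is a proton pump that spends ATP to acidify the vacuole.

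The product names show that the set is wider than the mitochondrial chain. Nuclear genes of mitochondrial type number 34: 9 of complex I, 2 external NADH dehydrogenases, 4 of complex II, 3 of complex III, 6 of complex IV, 5 assembly factors and copper chaperones, and 5 named as mitochondrial ATP synthase. Another 16 are named ATP synthase with no compartment, 2 are nuclear genes of chloroplast type and 16 are subunits of the vacuolar pump. The remaining 32 carry names of genes that mitochondria or plastids encode themselves, although the table places them on nuclear chromosomes (31 by name, and LOC_Os10g21240 because it lies within 500 bp of one). They are called organelle-type here. For names alone, the RefSeq rice table (assembly ASM3414082v1) lists 16 such symbols on the mitochondrial genome, among them atp9, cox1, nad4, nad6 and nad7, and 17 on the plastid genome, among them atpA, atpB, atpE, atpF, atpH and atpI. Many organelle-type loci lie in runs. On build IRGSP-1.0, 6 lie between 10837615 and 10860407 of chromosome 10, 3 between 20479654 and 20483272 of the same chromosome, and 4 between 20461923 and 20541110 of chromosome 12. Reads from organelle transcripts could align to near-identical nuclear copies, so their values are uncertain as to which copy was measured. LOC_Os06g39740 (start 23589443, stop 23590939) and LOC_Os06g39756 (start 23590936) overlap, and the strand setting of the counting is not given in the sources used here.

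Reads assigned to genes ran from 1830817 to 9628451 per library, with a median of 5853252, and a floor of 3 reads corresponded to 0.293 to 2.059 CPM (a gene's reads as a proportion of the library, on the scale of the deposited table). CPM values here are the deposited log2 values taken off the log scale, so they hold the offset of 0.5 read and the authors' library scaling. Warm 0 h replicate 1 and hot 24 h replicate 1 stood apart from the other libraries of their groups. Without both, 24 of the 26 calls over the warm hours remained, and the organelle-type values at hot 24 h are given with and without them. Of the 100 genes, 5 had 0 reads in some library and 8 had a mean log2 value under 1, and all 100 stayed in the tests. The labels do not tie a library to a tank, so p-values measure the spread between these libraries. Warm libraries were sequenced on lanes 1 and 2, hot on 2 and 3 and cold on 3 and 4. Values within the lane of hot and warm rest on 2 hot libraries and 1 warm at 2 h and 1 hot and 2 warm at 6 h. Those within the lane of hot and cold rest on 2 hot libraries and 1 cold at 2 h and 3 hot and 1 cold at 6 h. With 1 library on a side, they are not a replicated check against lane. Warm and cold never shared a lane, so no value within a lane exists for cold against warm. A model with lane as a term links lanes 2 and 3 through the hot libraries. Lanes 3 and 4 are linked in it only through cold 2 h replicate 1 and cold 6 h replicate 1. All cold 24 h libraries were on lane 4. That model gave 0 calls among the 100 in each cold shift. Values in leaf pieces are bulk values, in which fewer cells of a type and less RNA per cell cannot be told apart. Except for values within a lane and where libraries were left out, n = 4 libraries per group. Differences are on the log2 scale, and each fitted difference has its standard error (SE). Adjusted p-values are two-sided, from limma with the Benjamini-Hochberg method over all 19308 genes. A gene was called at an adjusted p under 0.05.

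Few of these genes moved with temperature, and those that did moved at 2 and 6 h of heat. At 2 h, 4 of the 100 passed (2 higher and 2 lower in hot leaves), where 8.20% of all genes passed (3.63% higher and 4.58% lower). At 6 h, 5 passed (1 higher and 4 lower), against 6.90% of all genes (2.39% higher and 4.51% lower). With the libraries scaled by their raw read totals the split was 3 higher and 1 lower at 2 h and 0 higher and 5 lower at 6 h. Of all 19308 genes 830 were then higher and 533 lower at 2 h, and 350 and 893 at 6 h. With voom weights as well the members' split was 4 and 1 at 2 h and 2 and 5 at 6 h. The voom weights setting used raw read totals throughout, and the share of all genes called with it is not given here. When only the groups compared were fitted, 7 passed at 2 h and 15 at 6 h, where 13.7% and 14.5% of all genes did. Hot leaves set directly against cold leaves gave 9 calls at 2 h (5 higher and 4 lower in hot). Of all genes 15.1% passed (6.73% higher and 8.32% lower). With raw totals, with or without voom weights, 6 members were higher and 1 lower. Without weights 1796 of all 19308 genes were higher and 918 lower in that contrast. At 6 h that contrast gave 8 calls (5 higher and 3 lower), against 8.28% of all genes (3.17% higher and 5.11% lower), and 20 calls against 22.6% of all genes when only these groups were fitted. The members' counts are close to or below these background shares. The hot against cold contrasts use the same hot libraries as the hot against warm ones, so the values are given side by side and not as separate evidence.

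At 24 h of heat and at 2, 6 and 24 h of cold limma called 0 of the 100, and the background was 0% of all genes in each of these shifts. At an unadjusted p under 0.05 the 100 gave 3 at hot 24 h, 13 at cold 2 h, 3 at cold 6 h and 14 at cold 24 h, where all genes gave 6.25%, 6.48%, 4.5% and 7.55%. Hot against cold leaves at 24 h gave 0 calls (background 0%) with 16 at an unadjusted p under 0.05, where all genes gave 7.61%. Of the 16, 13 were organelle-type loci. The voom weights gave 0 calls in all 5 of these contrasts. Hot against cold at 24 h gave 4 calls without hot 24 h replicate 2, where 2.19% of all genes were called. The change of the heat effect between 2 and 24 h, tested as a difference of differences, gave 0 calls among the 100 against 0.834% of all genes. At an unadjusted p under 0.05 it gave 7, where all genes gave 15%. It gave 0 calls with voom weights, and 1 call without warm 2 h replicate 2, where 0.974% of all genes were called. The same test for cold gave 0 calls (background 0%), also with voom weights. At an unadjusted p under 0.05 it gave 12, of which 11 were organelle-type loci, where all genes gave 5.11%.

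**Figure D1:**
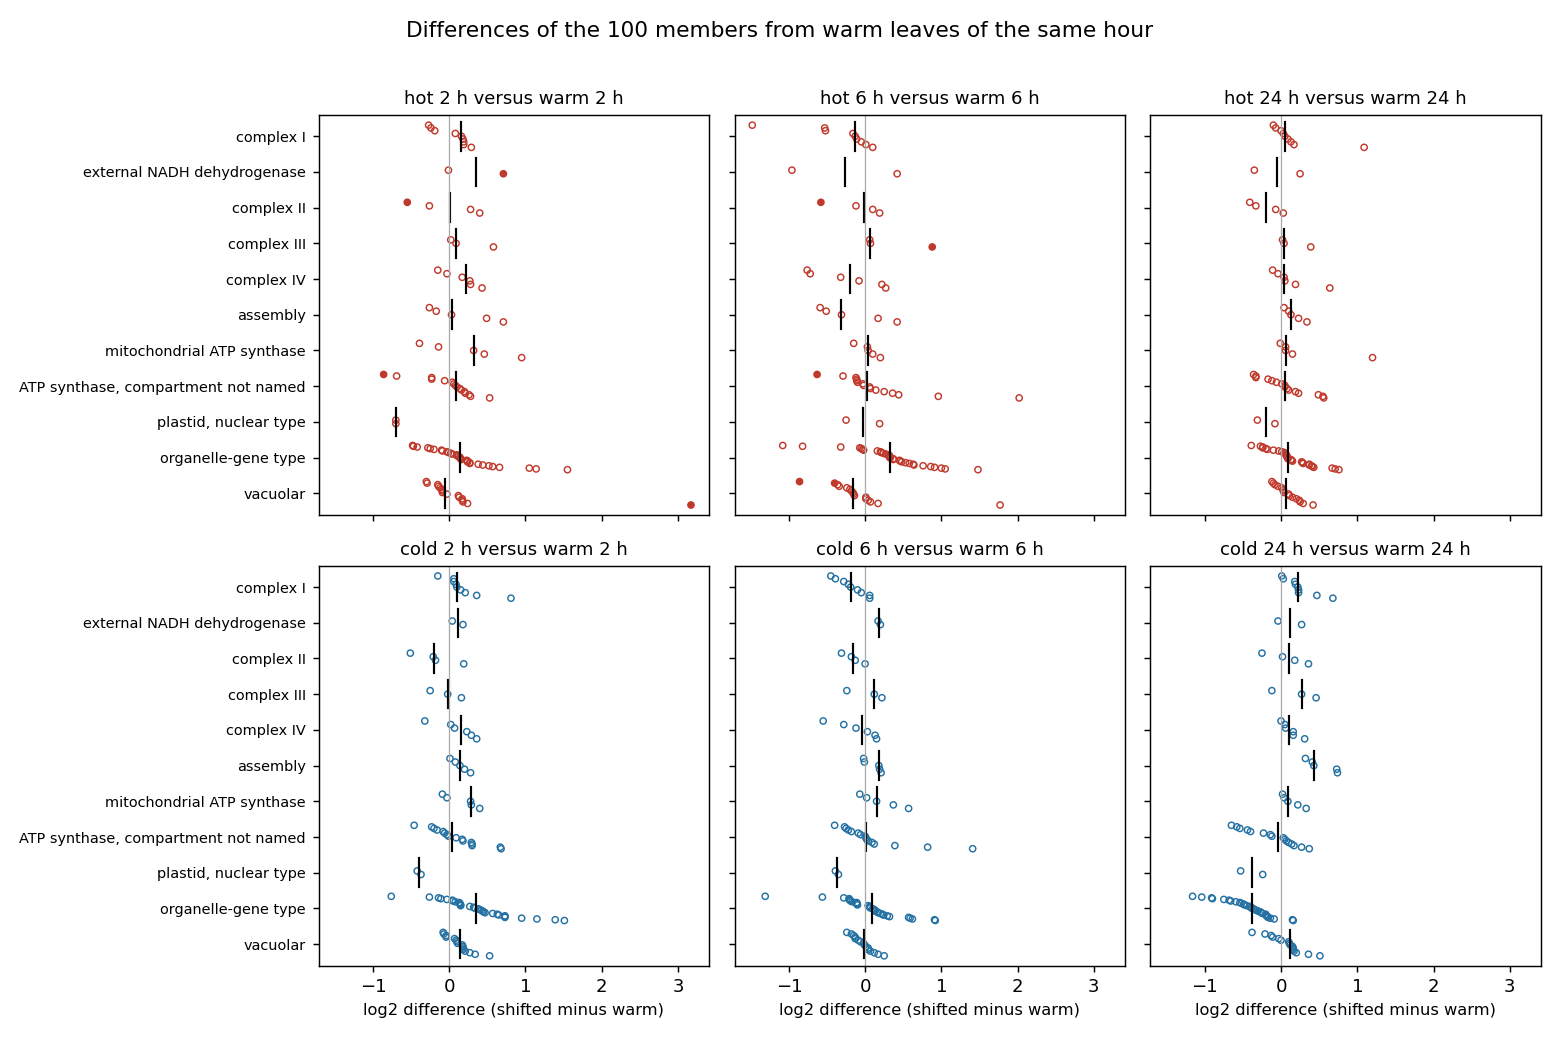
Log2 difference from warm leaves of the same hour (horizontal axis) for each of the 100 genes by class (vertical axis), with 1 panel per temperature shift. Filled points passed at an adjusted p under 0.05, open points did not, and the black line is the class median: the 4 panels of cold leaves and of hot leaves at 24 h hold no filled point, and at cold 24 h the organelle-type median was -0.38 while that of complex I was 0.22.

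Among the dehydrogenases that take electrons from NADH, a single gene rose in heat. LOC_Os06g47000, an external NADH dehydrogenase on the minus strand of chromosome 6 from 28504138 to 28508822, rose at 2 h of heat. Warm leaves at 2 h gave 20.4, 28.7, 27.6 and 26.8 CPM in replicates 1 to 4, hot leaves 44.2, 40.5, 45.2 and 38.5 CPM, and cold leaves 22.8, 25.2, 29.3 and 28.9 CPM. All 4 hot libraries lay above all 8 warm and cold libraries of that hour. The difference from warm was 0.71 (SE 0.18, limma adjusted p = 0.0141) and from cold 0.67 (SE 0.18, limma adjusted p = 0.0117). Within the lane that hot and warm share (2 hot libraries and 1 warm), the difference was 0.66. Within the lane that hot and cold share (2 hot libraries and 1 cold), it was 0.87. With lane as a term the difference from warm was 0.70 with a limma adjusted p of 0.0811, so that call was lost. It was also lost without warm 2 h replicate 1, where the difference was within the 0.60 to 0.77 that single omissions gave. At 6 h the difference was 0.42 and at 24 h 0.25, and neither passed, while the cold shifts gave 0.04, 0.17 and 0.27. The other external NADH dehydrogenase, LOC_Os08g04630, was near the floor of detection and passed in no shift (-0.96 at hot 6 h, SE 0.55).

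The 9 nuclear genes of complex I, the proton-pumping NADH dehydrogenase, passed in none of the 6 shifts. Their median differences were 0.16 at hot 2 h, -0.13 at hot 6 h and 0.05 at hot 24 h, and 0.10, -0.19 and 0.22 in cold. LOC_Os07g45090, which encodes the NADH-binding flavoprotein subunit, lay lower in hot than in cold leaves at 2 h, where the hot against cold test passed. Its hot libraries gave 92.7, 92.5, 75.2 and 66.0 CPM and its cold libraries 121.6, 120.3, 159.2 and 95.8 CPM, without overlap. The difference was -0.60 (SE 0.20, limma adjusted p = 0.0366) and -0.79 within the shared lane. The call was lost with quantile normalization, with voom weights, and without any 1 of hot 2 h replicates 3 and 4 or cold 2 h replicates 1, 2 and 3, with single omissions giving -0.71 to -0.47. Against warm leaves the same gene gave -0.24 at hot 2 h and 0.36 at cold 2 h, and neither passed. It stood at -0.52 at hot 6 h, also short of the threshold, with hot leaves at 61.4, 56.0, 62.8 and 50.7 CPM and warm leaves at 79.6, 80.2, 93.4 and 78.3 CPM. These groups did not overlap, although the limma adjusted p was 0.109. LOC_Os03g09210, an accessory subunit of the alpha subcomplex, lay between -0.19 and 0.06 in the 6 shifts.

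Succinate dehydrogenase, complex II, links the tricarboxylic acid cycle to the chain, and its 4 genes did not move together. LOC_Os08g02640, an iron-sulfur subunit on chromosome 8 from 1092615 to 1094690, fell at both early hours of heat. At 2 h warm leaves gave 47.5, 33.5, 46.1 and 36.9 CPM and hot leaves 24.8, 33.6, 27.9 and 25.2 CPM. At 6 h warm leaves gave 46.4, 30.4, 46.1 and 48.6 CPM and hot leaves 28.7, 30.6, 26.2 and 27.2 CPM. Warm replicate 2 was low at both hours and overlapped with the hot libraries, and the other 3 warm libraries lay above all hot ones. The differences were -0.55 (SE 0.16, limma adjusted p = 0.0311) at 2 h and -0.58 (SE 0.16, limma adjusted p = 0.0228) at 6 h. Within the shared lane they were -0.35 and -0.72, and with lane as a term the adjusted p rose to 0.11 and 0.194. The 2 h call was lost with voom weights and without any 1 of warm 2 h replicates 1 and 3 or hot 2 h replicates 1, 3 and 4, with differences of -0.64 to -0.48. The 6 h call was lost without any 1 of warm 6 h replicates 1, 3 and 4 or hot 6 h replicates 3 and 4, with differences of -0.74 to -0.52. At 24 h the difference was -0.07, and the cold shifts gave -0.21, -0.18 and 0.18.

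The flavoprotein subunit of complex II, LOC_Os07g04240, which carries the succinate-oxidising site, gave 0.40 at hot 2 h (SE 0.17) and did not pass. Its 4 hot libraries, at 78.5, 76.1, 83.1 and 82.8 CPM, nonetheless lay above the warm ones at 68.2, 65.7, 49.1 and 61.5 CPM. Its other shifts lay between -0.31 and 0.36. LOC_Os07g33680, a membrane anchor subunit, passed only in hot against cold leaves at 2 h among the 12 tests run. The hot libraries gave 6.36, 6.32, 5.69 and 7.68 CPM and the cold ones 4.78, 3.46, 3.55 and 3.37 CPM, a difference of 0.79 (SE 0.23, limma adjusted p = 0.0155) without overlap. Within the shared lane the difference was 0.47. The call did not hold with lane as a term (0.78, limma adjusted p = 0.138) and without hot 2 h replicate 4, with single omissions giving 0.71 to 0.90.

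Complex III passes electrons to cytochrome c. LOC_Os02g33730, a hinge protein that in other eukaryotes contacts cytochrome c1, lies on chromosome 2 from 20125259 to 20130234 and rose at 6 h of heat. Warm leaves gave 5.97, 7.2, 4.63 and 6.01 CPM and hot leaves 11.1, 10.2, 10.2 and 11.8 CPM. The groups did not overlap, and the difference was 0.88 (SE 0.25, limma adjusted p = 0.0295). Within the shared lane the difference was 1.08, and with lane as a term 1.14 with a limma adjusted p of 0.0507. The call was lost without any 1 of warm 6 h replicates 1, 3 and 4 or hot 6 h replicates 1, 2 and 4, with differences of 0.76 to 0.97, and with raw totals (0.85, adjusted p of 0.0663). The other 5 shifts gave 0.58 and 0.39 in heat at 2 and 24 h and 0.16, 0.12 and 0.46 in cold, none of which passed. LOC_Os11g06340, which carries the same product name as LOC_Os02g33730, did not pass at 6 h of heat. Its geometric means at 6 h were 7.16 CPM in hot leaves and 6.81 CPM in warm leaves. LOC_Os07g48244, a small subunit of complex III, lay between -0.25 and 0.27 in the 6 shifts.

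Complex IV, cytochrome c oxidase, reduces oxygen, and none of its 6 genes passed against warm leaves. LOC_Os03g56190, named as cytochrome c oxidase-related, was higher in hot than in cold leaves at 2 and 6 h. At 2 h the hot libraries gave 26.8, 28.8, 29.4 and 28.2 CPM and the cold ones 20.1, 19.9, 18.3 and 16.6 CPM. At 6 h the hot libraries gave 26.3, 24.9, 24.2 and 30.5 CPM and the cold ones 20.4, 17.2, 17.6 and 17.5 CPM. The groups did not overlap at either hour. The differences were 0.60 (SE 0.15, limma adjusted p = 0.00627) and 0.54 (SE 0.15, limma adjusted p = 0.0192), and within the shared lane 0.52 and 0.37. Both calls were lost with lane as a term (adjusted p of 0.229 and 0.329), and the 6 h call also without any 1 of hot 6 h replicate 4 or cold 6 h replicates 2 and 4 (0.47 to 0.60). At 24 h the gene stood at 17.4 to 31.3 CPM in hot leaves and at 25.8 to 36.2 CPM in cold ones, which overlap. The oxidase members with the highest mean levels, LOC_Os12g37419 (polypeptide Vc) and LOC_Os03g27290, lay between -0.32 and 0.23 and between 0.02 and 0.43 in the 6 shifts.

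The assembly factors include copper chaperones that deliver copper to cytochrome c oxidase, COX11 and COX15, which in yeast serve copper insertion and heme A synthesis, and a chaperone for complex III. None of the 5 passed against warm leaves. LOC_Os07g30790, the complex III chaperone, was lower in hot than in cold leaves at 2 and 6 h. At 2 h its hot libraries gave 27.1, 25.4, 22.8 and 16.8 CPM and its cold ones 32.6, 28.2, 44.0 and 29.7 CPM. At 6 h the hot libraries gave 20.7, 20.5, 16.2 and 19.6 CPM and the cold ones 29.2, 25.1, 29.4 and 26.8 CPM. All hot libraries lay below all cold ones at both hours. The differences were -0.55 (SE 0.16, limma adjusted p = 0.0156) and -0.52 (SE 0.16, limma adjusted p = 0.0304), and -0.73 and -0.64 within the shared lane. Both calls were lost with voom weights and with lane as a term (adjusted p of 0.0526 and 0.104), and the 2 h call also when only these groups were fitted. Without either hot 2 h replicate 4 or cold 2 h replicate 3 the 2 h call was lost (-0.63 to -0.40), and the 6 h call without any 1 of hot 6 h replicates 3 and 4 or cold 6 h replicates 1, 3 and 4 (-0.57 to -0.45). LOC_Os08g38720, which is COX15 by name, lay between -0.59 and 0.43 in the 6 shifts with an SE of 0.30.

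**Figure D2:**
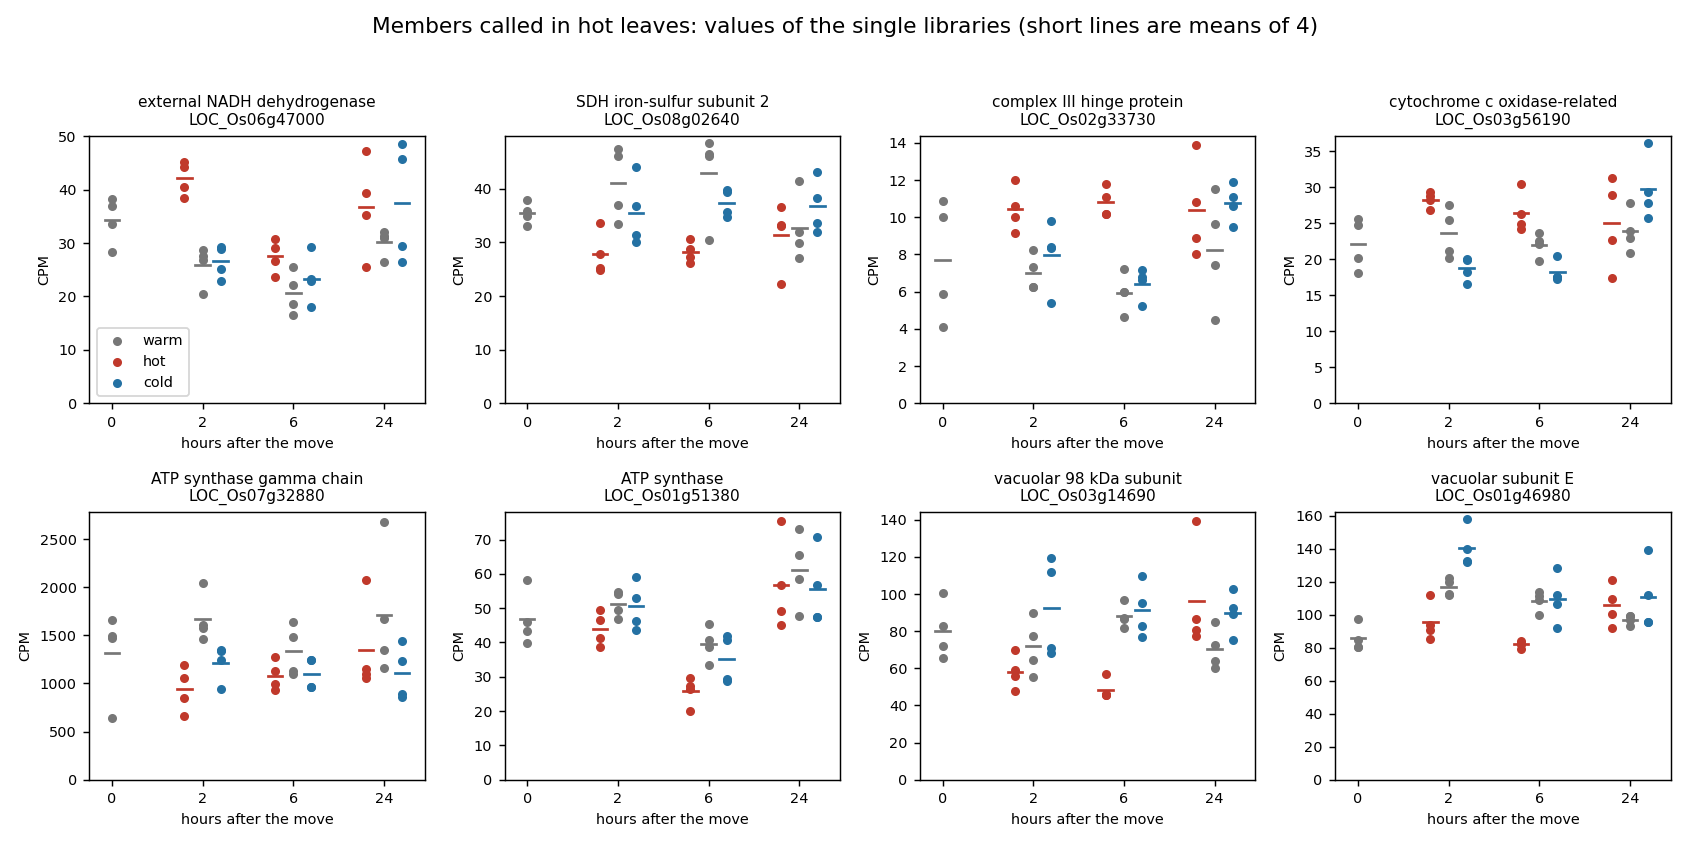
CPM of 8 genes (vertical axis) in every library by hour after the shift (horizontal axis), with warm in grey, hot in red, cold in blue and short lines for the means of 4 libraries. LOC_Os06g47000 at 2 h has its hot libraries at 38.5 to 45.2 CPM above the warm ones at 20.4 to 28.7, and LOC_Os03g14690 at 6 h has its hot libraries at 45.7 to 56.9 CPM below the warm ones at 81.9 to 96.6.

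ATP synthase has a membrane rotor driven by protons and a catalytic head, joined by the gamma shaft. None of the 5 genes named as mitochondrial passed in any temperature shift: LOC_Os02g03860 lay between -0.07 and 0.46, and the delta chain LOC_Os07g31300 between -0.01 and 0.40. Among the 16 with no compartment in the name, 1 fell at 2 h of heat and 1 at 6 h. LOC_Os07g32880, a gamma chain on chromosome 7 from 19655991 to 19657603, gave 1457.4, 1602.1, 2046.0 and 1579.0 CPM in warm leaves at 2 h and 1051.5, 1195.5, 846.7 and 660.8 CPM in hot leaves. All hot libraries lay below all warm ones, and the difference was -0.86 (SE 0.27, limma adjusted p = 0.0406). Plants have gamma chains in both chloroplasts and mitochondria, and the name does not say which this is. Within the shared lane the difference was -0.49, with lane as a term the limma adjusted p was 0.136, and the call was lost without any 1 of the 4 warm libraries or hot 2 h replicates 1, 3 and 4 (-0.98 to -0.70). The other shifts gave -0.29 and -0.33 in heat and -0.46, -0.27 and -0.58 in cold, none of which passed. LOC_Os09g08910, next in mean level in this class, lay between -0.23 and 0.49.

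LOC_Os01g51380, named only ATP synthase, lies on chromosome 1 from 29536683 to 29542409 and fell at 6 h of heat. Warm leaves gave 40.8, 38.8, 33.4 and 45.4 CPM and hot leaves 27.3, 29.5, 26.3 and 20.0 CPM, with no overlap. The difference was -0.63 (SE 0.17, limma adjusted p = 0.0194) and -0.51 within the shared lane. The call did not hold with lane as a term (adjusted p of 0.0982) and without any 1 of warm 6 h replicates 1 and 4 or hot 6 h replicate 4 (-0.70 to -0.51). LOC_Os01g49190, with the same product name, moved the other way when hot and cold leaves were compared. At 6 h its hot libraries gave 104.7, 125.0, 122.1 and 105.2 CPM and its cold ones 74.9, 83.2, 65.6 and 82.0 CPM, a difference of 0.58 (SE 0.12, limma adjusted p = 0.00236) and 0.64 within the shared lane. That call held without each single library and did not hold with lane as a term (0.45, adjusted p of 0.106). At 2 h the difference was 0.36 (SE 0.12, limma adjusted p = 0.0441) with groups that overlapped, and 0.06 within the shared lane. The 2 h call was lost in 4 of 10 alternative settings and without any 1 of hot 2 h replicates 2, 3 and 4 or cold 2 h replicates 2, 3 and 4 (0.30 to 0.49).

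The 2 nuclear genes of chloroplast type passed in no shift. LOC_Os03g17070, the B chain of the chloroplast ATP synthase, gave -0.70 at hot 2 h, and LOC_Os01g66000, subunit N of the chloroplast NADH dehydrogenase-like complex, also gave -0.70 there (SE 0.28 and 0.26). Their other values lay between -0.53 and -0.25 for the first and between -0.37 and 0.19 for the second.

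Of the falls called against warm leaves, that of LOC_Os03g14690 was the only one to hold in every alternative that was run. LOC_Os03g14690, one of several genes named for the large membrane subunit of the pump, on chromosome 3 from 7982396 to 7989437, fell at 6 h of heat. Warm leaves gave 96.6, 81.9, 86.7 and 87.3 CPM, hot leaves 45.9, 45.7, 56.9 and 45.7 CPM and cold leaves 109.8, 76.6, 83.0 and 95.1 CPM. Every hot library lay below every warm and cold library of that hour. The difference from warm was -0.86 (SE 0.19, limma adjusted p = 0.00336) and from cold -0.90 (SE 0.19, limma adjusted p = 0.00188). Within the shared lanes they were -0.92 and -1.16, and both calls held in all 10 alternative settings and without each single library. At 2 h the hot libraries were 69.6, 55.6, 59.0 and 47.8 CPM and the cold ones 112.0, 70.7, 119.3 and 68.3 CPM. These overlap, and the difference of -0.64 (SE 0.19, limma adjusted p = 0.0188; -1.08 within the shared lane) was lost with voom weights, when only these groups were fitted, and without any 1 of hot 2 h replicate 4 or cold 2 h replicates 1 and 3 (-0.77 to -0.50). At 24 h hot leaves stood at 139.5, 86.7, 80.8 and 77.4 CPM and warm leaves at 59.9, 64.1, 84.8 and 72.4 CPM, which overlap. LOC_Os10g10500 and LOC_Os01g61780 carry the same product name and were not called at 6 h of heat. Their geometric means at 6 h were 145.1 and 60.5 CPM in hot leaves and 141.1 and 66.4 CPM in warm leaves.

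The pump is held still by a peripheral stalk that contains subunit E, and the 2 genes for subunit E went opposite ways in heat. LOC_Os01g46980, on chromosome 1 from 26811849 to 26816727, fell at 6 h, with warm leaves at 111.0, 108.9, 99.7 and 113.4 CPM and hot leaves at 79.1, 84.2, 82.4 and 82.1 CPM. The groups did not overlap. The difference was -0.40 (SE 0.12, limma adjusted p = 0.0331) and -0.43 within the shared lane. This call was lost with the libraries shifted to one median, with lane as a term (-0.32, adjusted p of 0.358), and without any 1 of warm 6 h replicates 1, 2 and 4 or the 4 hot 6 h libraries (-0.44 to -0.38). Against cold leaves the same gene was lower in hot leaves at 2 h, at 93.5, 111.7, 90.9 and 85.4 CPM against 131.9, 139.9, 158.2 and 132.2 CPM. That difference, -0.56 (SE 0.12, limma adjusted p = 0.0013; -0.58 within the shared lane), held in all 10 alternative settings and without each single library. At 6 h the difference from cold was -0.41 (SE 0.12, limma adjusted p = 0.0245; -0.43 within the shared lane), and it was lost when libraries were shifted to one median, with lane as a term (-0.42, adjusted p of 0.128), and without any 1 of hot 6 h replicates 1 and 4 or cold 6 h replicates 1 and 4 (-0.49 to -0.33).

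LOC_Os01g12260, the other gene for subunit E, on chromosome 1 from 6699462 to 6703371, was higher in hot leaves at 2 h at a much lower read depth. It is named although its mean log2 value of 0.73 is below the level of 2 asked of named genes. Warm leaves at 2 h had 6, 10, 0 and 1 reads (0.817, 1.66, 0.149 and 0.211 CPM) and hot leaves 19, 14, 33 and 37 reads (3.4, 2.58, 6.25 and 5.1 CPM). The groups did not overlap. The fitted differences, 3.17 from warm (SE 0.63, limma adjusted p = 0.00174) and 2.64 from cold (SE 0.63, limma adjusted p = 0.00414), depend in size on the offset of 0.5 read. They were 3.81 and 2.51 within the shared lanes, and both calls held in all 9 settings that could be run and without each single library. The hot level at 2 h was close to that of warm leaves at 0 h, which stood at 6.88, 3.09, 3.12 and 4.7 CPM. The vacuolar gene with the highest mean level, LOC_Os10g10500, has the product name of LOC_Os03g14690 and lay between -0.01 and 0.24 in the 6 shifts. Of the 16 vacuolar genes, 1 rose at hot 2 h and 2 fell at hot 6 h, with class medians of -0.06 and -0.16 where all genes stood at 0.01 and -0.04.

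The 32 organelle-type loci gave no call in any of the 6 shifts. In heat, 22 of 32 lay above warm leaves at 2 h (median 0.14), 25 at 6 h (0.32) and 24 at 24 h (0.08). The 24 h side was not stable: 14 lay above without hot 24 h replicate 1 (median -0.05), 15 without warm 24 h replicate 3 (-0.07) and 16 without warm 24 h replicate 1. In cold, 27 lay above warm leaves at 2 h (0.35), 20 at 6 h (0.08) and 2 at 24 h (-0.38). Single omissions gave 20 to 30 above at cold 2 h (medians of 0.135 to 0.543), the lowest median without warm 2 h replicate 1. Over the shifted, quantile and voom scalings the class medians of the 6 shifts kept their sign. Relative to the median of all genes they ran from -0.49 to -0.29 at cold 24 h and from 0.29 to 0.35 at cold 2 h. These counts describe loci that share libraries, runs on the chromosome and possibly reads, and they are not independent. Direct comparison of hot and cold leaves at 6 h gave 3 organelle-type calls, all higher in hot leaves. They were LOC_Os12g34094 of nad4 type, LOC_Os12g33946 of cox1 type and LOC_Os12g33958 of nad7 type, named for core subunits of complexes I and IV.

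LOC_Os12g34094 gave 403.8, 521.6, 406.9 and 563.8 CPM in hot leaves at 6 h and 300.4, 338.2, 261.9 and 263.4 CPM in cold leaves, a difference of 0.70 (SE 0.18, limma adjusted p = 0.0122). LOC_Os12g33946 gave 784.3, 851.6, 684.7 and 857.4 CPM against 574.7, 577.8, 519.3 and 526.0 CPM, a difference of 0.53 (SE 0.14, limma adjusted p = 0.0172). LOC_Os12g33958 gave 1757.3, 2093.0, 1894.3 and 2395.8 CPM against 1480.5, 1604.5, 1369.4 and 1391.2 CPM, a difference of 0.47 (SE 0.14, limma adjusted p = 0.0287). Hot and cold libraries did not overlap at any of the 3 loci. Within the shared lane the differences were 0.71, 0.47 and 0.52. All 3 calls were lost with lane as a term (adjusted p of 0.0552, 0.057 and 0.175), the cox1-type and nad7-type calls also with quantile normalization, and the cox1-type call with voom weights. The nad4-type call was lost with raw totals (0.69, adjusted p of 0.0538) and without hot 6 h replicate 4 (0.61 to 0.77 over single omissions), and the cox1-type call without any 1 of hot 6 h replicates 2 and 4 or cold 6 h replicate 3 (0.49 to 0.60). The nad7-type call was lost without any 1 of hot 6 h replicates 2 and 4 or cold 6 h replicates 1, 3 and 4 (0.39 to 0.54). The loci with the highest mean levels of this class, LOC_Os12g34108 of atp9 type and LOC_Os12g33958, lay between -0.14 and 0.33 and between -0.27 and 0.30 in the 6 shifts from warm leaves.

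**Figure D3:**
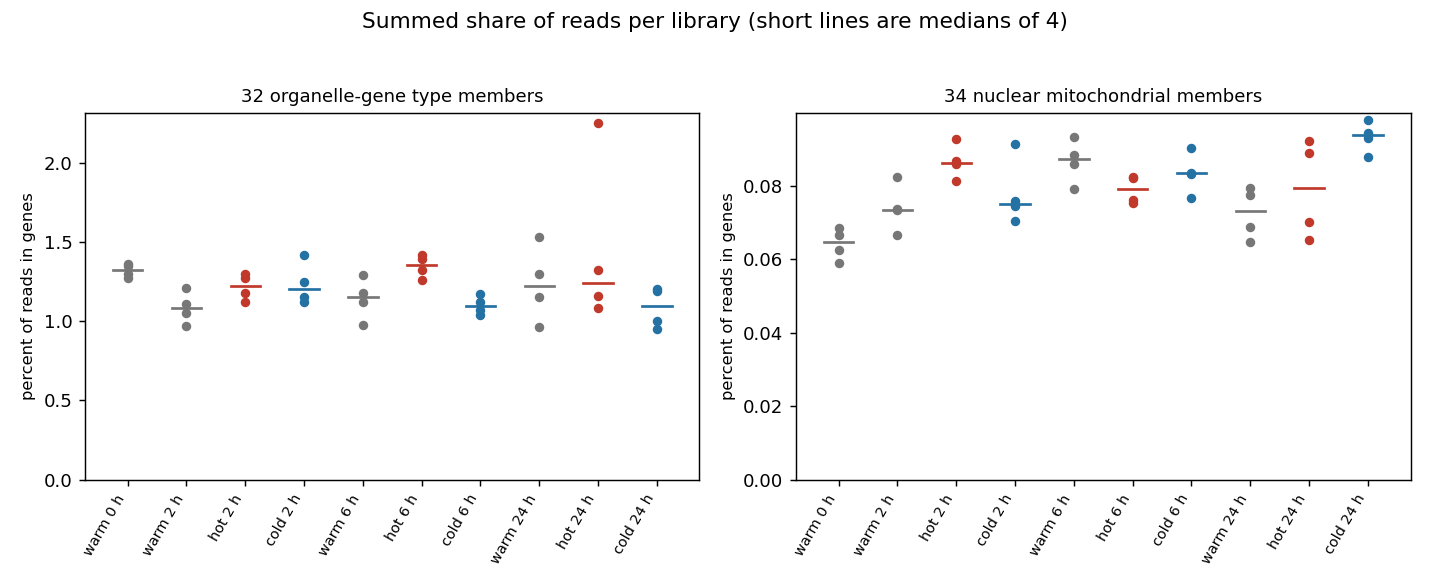
Percent of all gene reads in each library (vertical axis) taken by the 32 organelle-type loci and by the 34 nuclear genes of mitochondrial type, by group (horizontal axis), with lines at the group medians. Organelle-type loci took 1.26% to 1.42% at hot 6 h and 0.948% to 1.2% at cold 24 h, and a single hot 24 h library reached 2.25%.

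At 24 h of cold the nuclear and organelle-type genes lay on opposite sides of warm leaves, without any call. All cold 24 h libraries were on lane 4 and the warm 24 h libraries on lanes 1 and 2, so no lane held both. Of the 34 nuclear genes of mitochondrial type, 31 lay above warm leaves with a median of 0.20, where 9724 of 19308 genes lay above and the median of all genes was 0.00. All 9 complex I genes, all 5 assembly factors (median 0.43) and all 5 mitochondrial ATP synthase genes were among them. The 34 took 0.088% to 0.098% of gene reads in cold leaves at 24 h and 0.065% to 0.080% in warm leaves, ranges that did not overlap. These shares use raw read totals, with which the median of all genes was 0.17 and that of the 34 was 0.37. With these totals the median gene thus also lay higher in cold leaves, by less than the median of the 34. Across the alternatives 26 to 33 of the 34 lay above warm leaves, and 22 to 32 when single libraries were left out. For LOC_Os07g39710, an iron-sulfur protein of complex I, cold leaves gave 18.3, 22.5, 20.7 and 21.4 CPM and warm leaves 16.6, 16.3, 11.3 and 16.2 CPM, a difference of 0.47 (SE 0.18) that did not pass. For LOC_Os09g25314, a copper chaperone of cytochrome c oxidase, the values were 8.71, 7.61, 11.2 and 11.2 CPM against 7.65, 7.49, 3.77 and 4.87 CPM, a difference of 0.74 (SE 0.31) that did not pass. Both genes were chosen after their values were seen. Of the 32 organelle-type loci, 2 lay above warm leaves at cold 24 h, 8 with quantile normalization and 1 to 5 when single libraries were left out (medians of -0.60 to -0.21). Mesophyll markers stood on the same side, with 2 of 20 above warm leaves and a median of -0.60, and their part in these values was not tested. For LOC_Os10g38276, of atpI type, cold leaves gave 1067.5, 1482.1, 870.0 and 873.4 CPM and warm leaves 1336.7, 2091.2, 1499.2 and 2281.3 CPM, which overlap (-0.75, SE 0.26, not passing).

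In leaves that stayed warm, the hour of harvest gave more calls among these genes than any temperature contrast did. A moderated F test over 0, 2, 6 and 24 h called 26 of 100 genes, 6 with a higher and 20 with a lower level at 6 h than at 0 h. Of all genes 44.7% passed, 24.2% higher and 20.5% lower at 6 h. The split depends on the scaling. With raw read totals and no weights the median of all genes at 6 h moved from 0.08 to 0.55. The split among the 100 became 23 higher and 7 lower, where 9977 of 19308 genes passed, 7756 higher and 2221 lower. With voom weights as well it was 23 higher and 8 lower. Libraries shifted to one median gave 3 higher and 31 lower, and quantile normalization 6 higher and 15 lower. For the voom, shifted and quantile settings the share of all genes called is not given here, so these splits are not read as particular to the 100. Below, values are also given relative to the median of all genes.

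The gene with the smallest p in these hours was LOC_Os01g48300, on chromosome 1 from 27677796 to 27681547, named as related to ATP synthase protein I. In bacteria, protein I is a small membrane protein encoded beside the ATP synthase subunits. Its level was 15.5, 83.5, 60.6 and 77.0 CPM at 0 h, 211.3, 206.8, 216.9 and 250.6 CPM at 2 h, 328.5, 379.5, 405.1 and 372.9 CPM at 6 h and 88.9, 81.1, 133.5 and 89.6 CPM at 24 h. The 2 h and 6 h libraries lay above all libraries of 0 h and 24 h. The differences from 0 h were 2.15, 2.90 and 0.96 (SE 0.30, limma adjusted p = 1.41e-09). Without the libraries that stood apart they were 1.60, 2.34 and 0.40 (adjusted p of 5.16e-12), and with raw totals the 6 h difference was 3.37. Relative to the median of all genes it was 2.82 with either scaling.

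LOC_Os02g03860, a mitochondrial ATP synthase gene on chromosome 2 from 1637578 to 1641859, took the opposite course. It gave 130.3, 77.3, 80.5 and 85.2 CPM at 0 h, 46.5, 62.2, 54.2 and 54.2 CPM at 2 h, 45.0, 58.8, 70.7 and 40.9 CPM at 6 h and 77.8, 78.9, 68.3 and 72.2 CPM at 24 h. The libraries of 2 h and 6 h lay below all those of 0 h. The differences from 0 h were -0.76, -0.79 and -0.30 (SE 0.16, limma adjusted p = 0.000179), and at 6 h -0.32 with raw totals and -0.62 without the libraries that stood apart (adjusted p of 0.000768). LOC_Os07g41300 is an organelle-type locus on chromosome 7 named for the 49 kDa subunit family of NADH dehydrogenase. It gave 5.02, 4.09, 3.12 and 5.39 CPM at 0 h and 0.817, 1.98, 0.448 and 2.18 CPM at 2 h. At 6 h it gave 0.935, 1.41, 1.13 and 1.42 CPM and at 24 h 3.08, 3.99, 3.77 and 4.01 CPM. These levels are near the floor, which was 0.895 CPM in warm 2 h replicate 3, where the locus had 0.448 CPM. Again the 2 h and 6 h libraries did not overlap with those of 0 h. Its differences were -1.94, -1.84 and -0.22 (SE 0.43, limma adjusted p = 0.000133), and at 6 h -1.77 without the libraries that stood apart (adjusted p of 0.000232). Lane as a term left all 3 genes of smallest p called (2.81, -0.78 and -1.95 at 6 h).

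**Figure D4:**
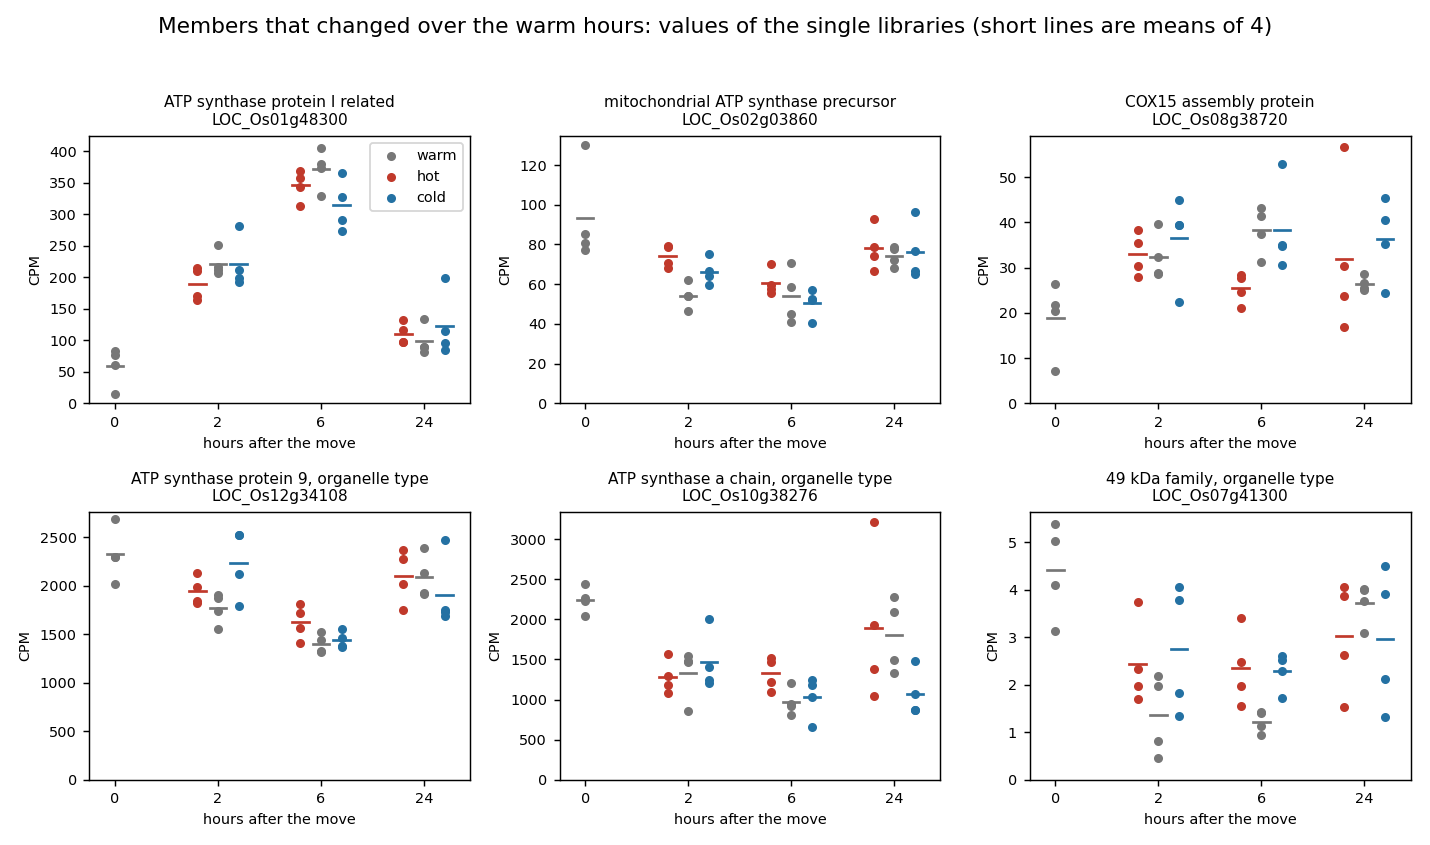
CPM of 6 genes (vertical axis) in every library at 0, 2, 6 and 24 h (horizontal axis). Warm is in grey, hot in red and cold in blue, with short lines for the means of 4 libraries. In warm leaves LOC_Os01g48300 climbed from 15.5 to 83.5 CPM at 0 h to 328.5 to 405.1 CPM at 6 h and stood at 81.1 to 133.5 CPM at 24 h. In the same leaves LOC_Os02g03860 went from 77.3 to 130.3 CPM down to 40.9 to 70.7 CPM and stood at 68.3 to 78.9 CPM at 24 h.

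By class, organelle-type loci made up 11 of the 26 calls of the warm hours, all lower at 6 h than at 0 h in the deposited scaling. Their median difference at 6 h was -0.77, which is -0.85 relative to the median of all genes. That relative value was -0.85 with libraries shifted to one median, -0.60 with quantile normalization and -0.85 with raw totals, with 14, 6 and 3 calls. Raw totals with voom weights gave -0.83 and 5 calls. The share of all genes called in the shifted, quantile and voom settings is not given here. Without the libraries that stood apart 12 organelle-type loci were called, where 44.2% of all genes were. LOC_Os12g34108, of atp9 type, gave 2691.5, 2296.3, 2013.7 and 2298.8 CPM at 0 h and 1526.5, 1444.0, 1315.8 and 1325.8 CPM at 6 h, without overlap (-0.72, limma adjusted p = 0.000849; relative to all genes -0.80, also with raw totals). Its call was lost with quantile normalization (-0.07, adjusted p of 0.989) and with raw totals (-0.25, adjusted p of 0.401). LOC_Os10g38276, of atpI type, gave 2043.4, 2270.6, 2446.7 and 2227.4 CPM at 0 h and 916.5, 1211.6, 939.1 and 809.0 CPM at 6 h, also without overlap (-1.23, limma adjusted p = 0.00127), and was not called with quantile normalization (-0.46, adjusted p of 0.23). LOC_Os12g33946, of cox1 type, and LOC_Os01g58010, of atp6 type, were called at -0.57 and -0.56, but quantile normalization put them at 0.08 and 0.03, without a call. Without the libraries that stood apart LOC_Os01g58010 was also not called (-0.52, adjusted p of 0.0561). In reads, the organelle-type loci took 1.27% to 1.36% of a library at 0 h and 0.973% to 1.29% at 6 h.

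The 34 nuclear genes of mitochondrial type gave 5 calls over the warm hours, 3 higher and 2 lower at 6 h, with a median of 0.04. Raw totals, with or without voom weights, gave 11 higher and 1 lower. Without weights 7756 of all 19308 genes passed as higher and 2221 as lower. None of the genes of complexes II, III and IV or of complex I passed. LOC_Os08g38720, COX15 by name, was higher at 2, 6 and 24 h than at 0 h by 0.91, 1.16 and 0.63 (limma adjusted p = 0.00868), and by 0.74 at 6 h without the libraries that stood apart (adjusted p of 0.0388). LOC_Os01g41610, a mitochondrial ATP synthase g subunit, gave 0.80 at 6 h (limma adjusted p = 0.0124), and its call was lost without those libraries (0.44, adjusted p of 0.174): its first 0 h library held 5.95 CPM and the other 3 held 20.9, 13.7 and 14.3 CPM. Both external NADH dehydrogenases were called. LOC_Os06g47000, the one that rose in heat, was lower at 6 h than at 0 h by a log2 difference of -0.74 (limma adjusted p = 0.0068), and -0.27 without a call with raw totals (relative to all genes -0.82 with either scaling). LOC_Os08g04630, near the floor of detection, differed from 0 h by 1.07 at 2 h and 1.46 at 24 h (SE 0.55, limma adjusted p = 0.0491). At 6 h it was at 0.01, at -0.15 with libraries shifted to one median and at -0.36 with quantile normalization. Its call was lost with raw totals (adjusted p of 0.0504).

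Of the 16 ATP synthase genes with no compartment 5 were called, 2 higher and 3 lower at 6 h. Beside LOC_Os01g48300 the higher one was LOC_Os01g49190 at 0.07, which turned to -0.09 with libraries shifted to one median. LOC_Os03g52660, a delta subunit, stood at -1.15 at 6 h, and LOC_Os01g51380 at -0.24, which turned to 0.24 without a call with raw totals. Of the 16 vacuolar genes 5 were called, and LOC_Os01g46980, a subunit E, was the 1 with a higher level at 6 h (0.34; 0.18 without a call when libraries were shifted to one median). LOC_Os07g36465, subunit H, and LOC_Os04g05080, subunit F, were at -0.43 and -0.14, and at 0.04 and 0.33 with raw totals, the latter without a call. LOC_Os01g12260, the subunit E that was higher in hot leaves at 2 h, differed from 0 h by -3.21, -1.98 and -1.20 at 2, 6 and 24 h in warm leaves (limma adjusted p = 0.000663). Genes named here for the warm hours beyond the 3 of smallest p were chosen after their values were seen.

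Other genes of mitochondrial metabolism were listed by product name and are read against the 8.20% of all genes called at 2 h of heat and the 6.90% at 6 h. Of 23 tricarboxylic acid cycle genes, 2 rose and 1 fell at 2 h of heat, and 0 rose and 1 fell at 6 h. LOC_Os04g32020, the E1 component of 2-oxoglutarate dehydrogenase, rose by 0.50 at 2 h (SE 0.13, limma adjusted p = 0.0147). LOC_Os08g33720, a lactate/malate dehydrogenase, fell at 2 h (-1.62, SE 0.44, limma adjusted p = 0.0185) and at 6 h (-2.24, SE 0.44, limma adjusted p = 0.00101). Of 57 mitochondrial carriers, which move metabolites across the inner membrane, 3 rose and 2 fell at 2 h and 2 rose and 4 fell at 6 h. The carrier LOC_Os10g42299 fell at both hours (-2.06 and -2.53, SE 0.41, limma adjusted p = 0.00188 and 0.000119). Of 23 genes of protein import, 1 rose at 2 h, and 1 rose and 1 fell at 6 h. LOC_Os10g22039, of the Tim17 family, rose at both hours (0.90 and 0.85, SE 0.23, limma adjusted p = 0.0114 and 0.0167). None of 3 cytochrome c genes or 4 prohibitins passed in heat at 2 or 6 h, and none of these 5 lists gave a call in cold or at 24 h of heat. Over the warm hours, where 44.7% of all genes passed, 15 of the 23 cycle genes passed (6 higher and 9 lower at 6 h), 35 of the carriers (15 and 20) and 10 of the import genes (7 and 3). No product name matched pyruvate dehydrogenase or alternative oxidase.

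Markers of other leaf cells were read beside these values. Of 20 mesophyll markers 0 were called at hot 2 h (median -0.08) and 1 fell at hot 6 h (median 0.39). Their summed level at 24 h was 62168.2 to 107665.7 CPM in warm, 39387.2 to 80668.7 CPM in cold and 52448.0 to 229317.3 CPM in hot leaves. Of 92 markers of dividing cells 6 rose and 5 fell at hot 2 h, and 3 rose and 9 fell at hot 6 h, where 8.20% and 6.90% of all genes were called. Their summed level at 6 h was 1909.7 to 2954.2 CPM in warm and 1772.8 to 1937.6 CPM in hot leaves. None of the 4 vascular markers passed, with medians of -2.10 at hot 2 h and -1.93 at cold 24 h, and the single guard cell marker gave -0.43 and -0.20 at hot 2 h and 6 h. The part of these cell types in the results above was not tested.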

How the data were processed

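Total RNA from 40 leaf samples was sequenced for 61 cycles from one end after ribosomal RNA depletion with a stranded Illumina kit, per the labels' protocols. The authors deposited log2 CPM values in the form limma voom writes, the read count plus 0.5 over a scaled library size. Per the submitters' processing notes the build was IRGSP-1.0 and the tools, named without roles or order, were featureCounts 1.5.0-p1, Subread 1.5.0-p1, FastQC 0.11.2, bedtools, bcl2fastq, SAMtools 1.1-26, limma 3.20.1 and edgeR 3.4.2. For the scaling and the filter on low counts, the methods were not given in the sources used here. Whole reads were recovered for 100% of values within 0.001, and no pair of replicates agreed within sampling noise.

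One limma model (3.58.1, R 4.3.3) of the 10 groups, with an intensity-dependent prior and robust estimation, took all 19308 genes on the deposited log2 scale and tested on simulated data. Tables and plots used matplotlib 3.10.9, numpy 2.4.6 and pandas 2.3.3 in Python 3.11.15. Standard errors come from the spread between libraries, and floors cover counting error only. Alternatives were an offset of 1, a filter at a mean log2 of 1, other scalings and weights, another prior, fewer groups, lane, a replicate block and the omission of libraries. The voom weights setting also replaced the authors' library scaling by raw read totals and used a prior that does not depend on intensity. A call lost with voom weights can thus not be put down to the weights alone.

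Members, lists and alternatives were chosen with earlier results of these data known, and classes were refined once product names had been read. Values within lanes, raw read totals without weights, class counts under the alternatives and values relative to all genes were added after seeing the data. Named genes are up to 8 passing members per contrast with the largest difference and a mean log2 of at least 2, the 3 of smallest p over the warm hours, and the 2 of highest mean in each class. Libraries with the same replicate number were not treated as pairs.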

Additional observations from a re-analysis of the deposited data

Results flagged for a closer look

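In 5 of 90 groups of 4 libraries tested, 1 library of a named gene lay far from the other 3 for the range of its group. Chance gives about 1 in 20 such groups. LOC_Os03g14690, a gene for the large membrane subunit of the vacuolar pump, had 56.9 CPM in hot 6 h replicate 3 where the others had 45.7 to 45.9 CPM. LOC_Os08g02640, the iron-sulfur subunit of complex II, had 30.4 CPM in warm 6 h replicate 2 where the others had 46.1 to 48.6 CPM. LOC_Os07g33680, a membrane anchor of complex II, had 4.78 CPM in cold 2 h replicate 1 where the others had 3.37 to 3.55 CPM. LOC_Os03g56190, the cytochrome c oxidase-related gene, had 20.4 CPM in cold 6 h replicate 1 where the others had 17.2 to 17.6 CPM. LOC_Os01g12260, a vacuolar subunit E, had 0 reads (0.102 CPM) in cold 2 h replicate 4 where the others had 0.993 to 1.48 CPM.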

How the results depend on the processing

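Of 29 called results of named genes, 9 held in each setting that was run and without each single library, and 0 reversed. With lane as a term the members called were 1 in hot 2 h versus warm 2 h, 1 in hot 6 h versus warm 6 h, 5 in hot 2 h versus cold 2 h and 1 in hot 6 h versus cold 6 h, where 2.86%, 1.38%, 9.15% and 4.96% of all genes were called. With only the groups compared they were 7, 15 and 20 in hot 2 h versus warm 2 h, hot 6 h versus warm 6 h and hot 6 h versus cold 6 h, where 13.7%, 14.5% and 22.6% of all genes were called. Leaving out single libraries gave 1 to 4, 1 to 4, 4 to 9 and 2 to 7 calls in these 4 contrasts, 0 to 4 in hot 24 h versus cold 24 h, 0 to 1 in the hot change between 2 and 24 h, and 21 to 28 over the warm hours; the other contrasts stayed at 0. Of all 19308 genes, these omissions gave 582 to 1690, 658 to 1131, 1664 to 2849 and 1009 to 1312 in those 4 contrasts. Over the warm hours they gave 7660 to 8925. Without warm 0 h replicate 1 and hot 24 h replicate 1 together, hot 2 h versus cold 2 h gave 10 (21.4% of all genes) and hot 6 h versus cold 6 h gave 11 (12.3%). The cause of these differences was not tested. With voom weights the calls were 5, 7, 7 and 8, and 31 over the warm hours. The share of all genes called with these weights is not given here. Raw library totals with no weights, added after seeing the data, gave 4, 5, 7 and 6 calls and 30 over the warm hours. Of all 19308 genes 1363, 1243, 2714 and 1384 passed, and 9977 over the warm hours. With these totals 8 of the 29 calls were lost. Against warm leaves they were LOC_Os08g02640 in hot 2 h versus warm 2 h and LOC_Os02g33730 in hot 6 h versus warm 6 h. In hot 2 h versus cold 2 h they were LOC_Os03g14690, LOC_Os07g45090 and LOC_Os07g30790. In hot 6 h versus cold 6 h they were LOC_Os12g34094, LOC_Os12g33946 and LOC_Os07g30790.

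Same-numbered replicates did not deviate together: over 36 pairs the correlation ran from -0.382 to 0.33, with 9 pairs over 0.1. The replicate block gave 4, 5, 9 and 8 calls in the early heat and hot against cold contrasts, 27 over the warm hours and 0 elsewhere. The share of all genes called with the block is not given here. The promoter description could not be run, since no promoter sequence was used here. A floor of 3 reads, 0.293 to 2.059 CPM, limits the genes of low level.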
